A study of Homo sapiens with 6 samples.

Results

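TGF-beta signalling in the HMGA2-knockdown series was followed through 10 genes for its ligands, receptors and SMAD proteins, namely TGFB1, TGFB2, TGFBR1, TGFBR2, TGFBR3, SMAD2, SMAD3, SMAD4, SMAD7 and LTBP3. The set was chosen with earlier results of these data known. Its genes were found by symbol among the 61806 genes in the deposited table. Each symbol matched 1 gene, and all 10 passed the filter on low counts. TGF-beta is secreted in a latent form bound to LTBP proteins in the extracellular matrix, and after release it brings together the type II receptor TGFBR2 and the type I receptor TGFBR1. TGFBR1 phosphorylates SMAD2 and SMAD3, which enter the nucleus with SMAD4 and act on target genes, whereas SMAD7 inhibits the receptor. In breast carcinoma the pathway is known both for growth arrest and for invasion and epithelial-mesenchymal transition, and HMGA2, a chromatin protein that binds AT-rich DNA through its AT hooks, is known as one of its target genes.

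The cells were MDA-MB-231, a human line of triple-negative breast carcinoma, as 3 lines with 2 libraries each: shNC, shHMGA2-1 and shHMGA2-2. The lines shHMGA2-1 and shHMGA2-2 carry different lentiviral shRNAs against HMGA2, and shNC is the control. The methods describe puromycin selection and expansion of a single clone for stable knockdown lines, with no such statement on shNC, so shRNA and clone cannot be told apart. Control samples are titled shNC but have library names of wild type, those titled shHMGA2-1 have SH2 in their library names, and groups follow the titles here. If the controls were wild type cells, transduction and selection could not be told apart from knockdown either. Nothing says whether the libraries of a line came from separate cultures, so p-values measure only the spread between these samples, which may be technical.

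The libraries held 16461178 to 17167293 counts. Within a line, libraries differed beyond counting noise (chi-square over genes divided by its degrees of freedom, 2.03 to 6.21), and between lines they differed far more (31.2 to 85.6). HMGA2 had counts of 2126 and 2161 (shNC), 858 and 989 (shHMGA2-1) and 435 and 482 (shHMGA2-2). Of 4 genes listed as low in MDA-MB-231, ESR1 had at most 12 counts in any library, PGR at most 2 and CDH1 at most 4. EPCAM was present with 127 to 302 counts, and the summed level of these 4 genes was 6.59 to 7.29 FPKM (fragments per length of exon and depth of library) in shHMGA2-1, against 3.11 to 3.60 in shNC and 3.34 to 3.47 in shHMGA2-2. Of 5 genes listed as markers of the line, the mesenchymal marker VIM was at 411 to 432 FPKM. The others varied more between libraries. CD44 was at 64.9 to 95.8 FPKM, AXL at 126 to 232, CAV1 at 99.9 to 189 and EGFR at 11.9 to 33.6. Of the markers of other cell types, 4 of 6 leukocyte, 2 of 4 endothelial and 5 of 6 fibroblast genes had 3 counts or fewer in every library, including PTPRC, CD3E, PDGFRA and DCN. The summed fibroblast list, carried by COL1A1, was at 1.19 to 1.53 FPKM in shHMGA2-1, 0.36 to 0.52 in shNC and 0.52 to 0.61 in shHMGA2-2, and its part in the results was not tested.

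Which of the pathway's genes changed when HMGA2 was knocked down was asked in each line against shNC, with edgeR's quasi-likelihood test on all 16110 tested genes and a call at an adjusted p under 0.05. TGFB2 and TGFBR2 fell and TGFBR3 and LTBP3 rose in both lines, by between 1.77-fold and 4.25-fold. TGFB1, SMAD4 and SMAD7 passed the threshold in neither line. SMAD3 was lower in shHMGA2-1 and higher in shHMGA2-2, while TGFBR1 and SMAD2 were called higher in shHMGA2-2 only; each of these 3 genes also differed between the knockdown lines in a direct test. Both comparisons use the same shNC libraries and are therefore not independent. In bulk RNA, fewer cells that express a gene and less of its RNA per cell cannot be told apart.

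In shHMGA2-1, 5 of the 10 genes were called (2 higher and 3 lower), where 33.4% of all tested genes were called (15.8% higher and 17.6% lower). Changes of at least 2-fold were called for 2 of the 10 genes, against 8.49% of all tested genes. In shHMGA2-2, 7 of the 10 were called (5 higher and 2 lower), where 58.7% of all tested genes were (29.5% higher and 29.2% lower). Here 3 of the 10 also passed the 2-fold threshold, against 21.3% of all tested genes. The members' median log2 fold change was -0.09 in shHMGA2-1 and 0.14 in shHMGA2-2, beside 0.01 and 0.03 over all tested genes. The share of the 10 genes called in each line was thus not far from that of the transcriptome, and the account below turns on the individual genes.

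**Figure D1:**
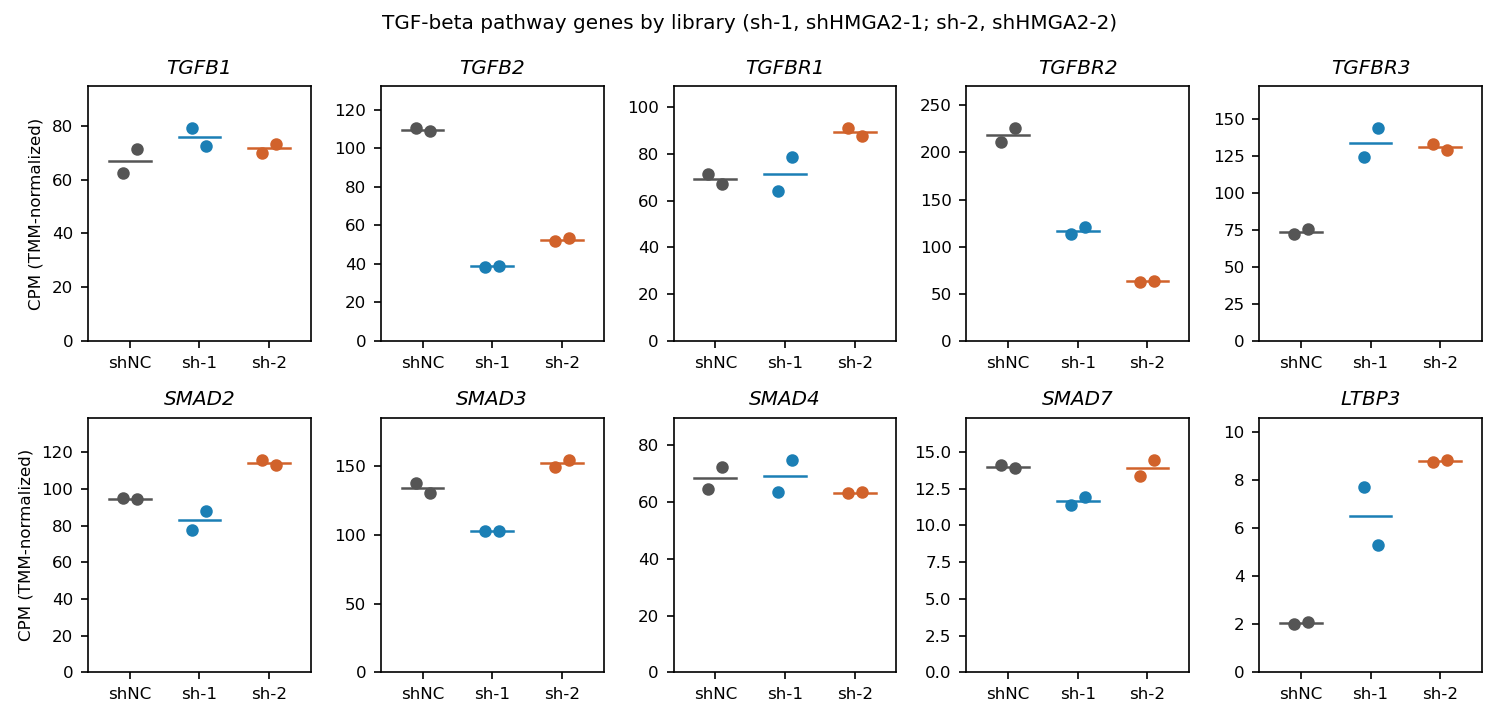
CPM (counts scaled to library size, TMM-normalized, y axis from 0 in each panel) of the 10 genes in the 6 libraries; points are libraries, bars are the mean of the 2 libraries of a line, and sh-1 and sh-2 stand for shHMGA2-1 and shHMGA2-2. TGFB2 and TGFBR2 lie below shNC and TGFBR3 and LTBP3 above it in all 4 shHMGA2 libraries, while the SMAD4 points of shHMGA2-1 lie on both sides of shNC.

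The promoter windows of the 4 genes that moved the same way in both lines are shown first, because HMGA2 binds AT-rich DNA and SMAD proteins bind short DNA elements. They come from RefSeq on GRCh38.p14 and are 300 bases long, most of it before an annotated transcription start, and all 10 genes had a window. Where a gene had several, the window nearest the gene's 5′ end in the deposited table was taken. Capitals mark each match on either strand to any of 4 motifs. The SMAD-binding element was searched as CAGAC, and so by its complement as GTCTG. For AP-1 factors, the element searched was TGANTCA, which reads alike from either strand. A GC box, bound by Sp1, was taken as GGGCGG, whose complement on the opposite strand is CCGCCC. The last motif was the TATA box, searched by the letters TATAA together with their complement TTATA. The windows lie at chr1:218345086-218345385 on the plus strand (TGFB2), chr3:30606351-30606650 on the plus strand (TGFBR2), chr1:91886102-91886401 on the minus strand (TGFBR3) and chr11:65558310-65558609 on the minus strand (LTBP3). The start site of the TGFBR3 window lies 20184 bases inside the gene's 5′ end in the deposited table and that of LTBP3 571 bases, whereas those of TGFB2 and TGFBR2 coincide with it.
TGFB2: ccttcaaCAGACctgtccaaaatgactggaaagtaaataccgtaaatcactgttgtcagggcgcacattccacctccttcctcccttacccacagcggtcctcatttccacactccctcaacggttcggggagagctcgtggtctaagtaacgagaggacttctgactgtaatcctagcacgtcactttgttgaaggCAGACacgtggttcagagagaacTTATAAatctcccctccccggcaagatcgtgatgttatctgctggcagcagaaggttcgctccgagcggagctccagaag
TGFBR2: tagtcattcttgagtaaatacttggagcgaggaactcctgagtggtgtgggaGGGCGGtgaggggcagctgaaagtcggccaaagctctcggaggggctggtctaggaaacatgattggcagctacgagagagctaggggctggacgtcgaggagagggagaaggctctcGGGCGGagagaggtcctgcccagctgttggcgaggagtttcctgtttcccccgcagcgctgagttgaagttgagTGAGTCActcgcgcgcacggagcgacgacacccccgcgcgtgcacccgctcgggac
TGFBR3: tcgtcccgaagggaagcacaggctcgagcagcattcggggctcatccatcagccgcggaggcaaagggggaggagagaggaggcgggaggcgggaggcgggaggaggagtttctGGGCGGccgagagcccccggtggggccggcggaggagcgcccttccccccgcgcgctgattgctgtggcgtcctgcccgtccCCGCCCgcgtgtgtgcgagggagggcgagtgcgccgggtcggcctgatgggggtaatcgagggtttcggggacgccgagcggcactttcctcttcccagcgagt
LTBP3: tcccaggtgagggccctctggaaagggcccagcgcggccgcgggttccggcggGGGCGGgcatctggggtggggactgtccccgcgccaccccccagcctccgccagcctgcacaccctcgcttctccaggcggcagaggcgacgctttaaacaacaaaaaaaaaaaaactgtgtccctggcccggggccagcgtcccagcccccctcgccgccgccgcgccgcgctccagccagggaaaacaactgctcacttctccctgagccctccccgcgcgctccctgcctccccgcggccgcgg

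CAGAC was found 2 times in the TGFB2 window and not in the other 3 windows shown. Among all 10 genes it was found in 4 (TGFB2, TGFBR1, SMAD3 and SMAD7), and 45.3% of the 35116 promoter windows of the table hold it. The AP-1 element was found only in TGFBR2 among the 10 genes (7.71% of all windows), where its last base is the start site, and the TATA box only in TGFB2 (20.4% of all windows), where both orientations overlap in 1 stretch. GC boxes were found in 7 of the 10 (45.0% of all windows), with 2 each in TGFBR2 and TGFBR3. A or T made up 48.3% of the TGFB2 window, 38.3% of TGFBR2, 28.3% of TGFBR3 and 28.0% of LTBP3, where the median of all windows was 41.3%. The lower genes thus had more A or T than the higher ones, but the highest shares among the 10 were in TGFBR1 (58.3%) and SMAD7 (51.7%). SMAD7 was called in neither line, and TGFBR1 only in shHMGA2-2, where it was higher. TGFBR1 had 8 windows to choose from and SMAD7 had 3. These matches describe letters in a fixed window and say nothing of binding.

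Of the ligands, TGFB2 fell in both knockdown lines and TGFB1 did not pass the threshold in either. TGFB2 (ENSG00000092969, chromosome 1, 218345336 to 218444619, plus strand), a ligand that needs TGFBR3 for efficient binding to TGFBR2, had 1791 and 1766 counts (shNC), 669 and 658 (shHMGA2-1) and 875 and 930 (shHMGA2-2). All 4 shHMGA2 libraries were below both shNC libraries, and the groups did not overlap. Mean levels were 109 ± 1.05 CPM for shNC, 38.7 ± 0.147 for shHMGA2-1 and 52.5 ± 1.15 for shHMGA2-2 (each SD, n = 2). The log2 fold change against shNC was -1.50 (SE 0.08, edgeR adjusted p = 6.63e-13) in shHMGA2-1 and -1.06 (SE 0.08, edgeR adjusted p = 4.01e-11) in shHMGA2-2. Although HMGA2 itself was lower in shHMGA2-2, the fall of TGFB2 was larger in shHMGA2-1, and the direct difference between the lines was 0.44 (SE 0.08, edgeR adjusted p = 0.000113). In shHMGA2-2 the change was under 2-fold when libraries were scaled by upper quartile or by their totals (-0.94 each).

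TGFB1 (ENSG00000105329, chromosome 19, 41301587 to 41353922, minus strand), the ligand most widely made by epithelial and immune cells, had counts of 1013 and 1160 (shNC), 1371 and 1230 (shHMGA2-1) and 1185 and 1277 (shHMGA2-2). Its CPM in shHMGA2-1 (79.0 and 72.5) stood just above shNC (62.3 and 71.4), and shHMGA2-2 (70.0 and 73.2) overlapped shNC. Against shNC, the log2 fold change was 0.18 (95% interval 0.00 to 0.36, edgeR adjusted p = 0.116) in shHMGA2-1 and 0.10 (95% interval -0.08 to 0.28, edgeR adjusted p = 0.338) in shHMGA2-2. TGFB1 did pass the threshold in both lines when libraries were scaled by upper quartile or by their totals (log2 fold changes of 0.21 to 0.25, edgeR adjusted p of 0.0310 to 0.0367), settings under which the median of all genes itself lay up to 0.15 above 0. In shHMGA2-1 it also passed without shHMGA2-1 replicate 2 (0.24, edgeR adjusted p = 0.0219), while without shNC replicate 1 it had 0.08 (edgeR adjusted p = 0.682, the highest over alternatives) in that line and 0.00 in shHMGA2-2. Its gene body overlaps HNRNPUL1 on the other strand (8607 to 9921 counts) and, on its own strand, ENSG00000286177 (41 to 138 counts). The strand setting of the counting is not given in the sources used here, so reads of TGFB1 and HNRNPUL1 may not be fully separated.

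LTBP3 (ENSG00000168056, chromosome 11, 65538559 to 65558930, minus strand), which binds latent TGF-beta and helps its secretion and storage in the matrix, had the largest fold change and the fewest counts of the 10 genes. It had 33 and 34 counts (shNC), 134 and 90 (shHMGA2-1) and 148 and 154 (shHMGA2-2). All shHMGA2 libraries were above shNC, and the libraries of shHMGA2-1 were further apart than those of the other lines. This gave a log2 fold change of 1.66 (SE 0.23, edgeR adjusted p = 4.72e-06) in shHMGA2-1, or 3.16-fold, and 2.09 (SE 0.23, edgeR adjusted p = 2.14e-08) in shHMGA2-2, or 4.25-fold. The lines differed from each other by 0.43 (SE 0.19, edgeR adjusted p = 0.0568), which did not pass the threshold, and by 0.73 (edgeR adjusted p = 0.00736) when shHMGA2-1 replicate 1 was left out. Over the alternatives in which it was recomputed, the adjusted p of this difference ran from 0.00736 to 0.480. Since the strand setting is not given, reads from the other strand may be among the LTBP3 counts, which was not tested.

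Among the receptors, TGFBR2 and TGFBR3 changed in opposite directions. TGFBR2 (ENSG00000163513, chromosome 3, 30606601 to 30694142, plus strand), the kinase that binds the ligand and activates TGFBR1, had 3431 and 3661 counts (shNC), 1962 and 2046 (shHMGA2-1) and 1064 and 1106 (shHMGA2-2). The 3 lines did not overlap, and shHMGA2-2 was the lowest. Levels were 218 ± 10.1, 117 ± 5.28 and 63.2 ± 0.387 CPM (each SD, n = 2) from shNC to shHMGA2-2. On the log2 scale the change from shNC was -0.90 (SE 0.07, edgeR adjusted p = 3.85e-10) in shHMGA2-1 and -1.79 (SE 0.07, edgeR adjusted p = 3.85e-16) in shHMGA2-2. The difference between the knockdown lines, -0.89 (SE 0.07, edgeR adjusted p = 4.39e-10), was about as large as that between shHMGA2-1 and shNC. The order of the lines was that of HMGA2 itself, but 3 lines do not allow a relation to be tested.

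TGFBR3 (ENSG00000069702, chromosome 1, 91680343 to 91906335, minus strand), the co-receptor betaglycan that presents TGF-beta and TGFB2 in particular to TGFBR2, had counts of 1169 and 1226 (shNC), 2155 and 2435 (shHMGA2-1) and 2245 and 2246 (shHMGA2-2). All shHMGA2 libraries were above shNC, and those of the knockdown lines overlapped. The log2 fold change was 0.86 (SE 0.08, edgeR adjusted p = 6.06e-09) in shHMGA2-1 and 0.83 (SE 0.08, edgeR adjusted p = 3.25e-09) in shHMGA2-2, or 1.82-fold and 1.77-fold. The difference between the lines was -0.03 (95% interval -0.19 to 0.13, edgeR adjusted p = 0.744).

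TGFBR1 (ENSG00000106799, chromosome 9, 99104038 to 99154192, plus strand), the kinase that phosphorylates SMAD2 and SMAD3, had 1162 and 1090 counts (shNC), 1113 and 1335 (shHMGA2-1) and 1538 and 1528 (shHMGA2-2). In CPM, libraries of shHMGA2-1 (64.2 and 78.7) lay on both sides of shNC (71.5 and 67.1), and those of shHMGA2-2 were above both other lines. Against shNC, the log2 fold change was 0.04 (95% interval -0.14 to 0.23, edgeR adjusted p = 0.764) in shHMGA2-1 and 0.37 (SE 0.09, edgeR adjusted p = 0.00118) in shHMGA2-2. The direct difference between the lines was 0.32 (SE 0.09, edgeR adjusted p = 0.00407), and it lost the threshold without shHMGA2-2 replicate 1 (edgeR adjusted p = 0.0644, the highest over alternatives, where the lowest was 7.12e-06). Its size rested on the shHMGA2-1 libraries, with 0.18 (edgeR adjusted p = 0.0468) without replicate 1 of that line and 0.48 without replicate 2.

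**Figure D2:**
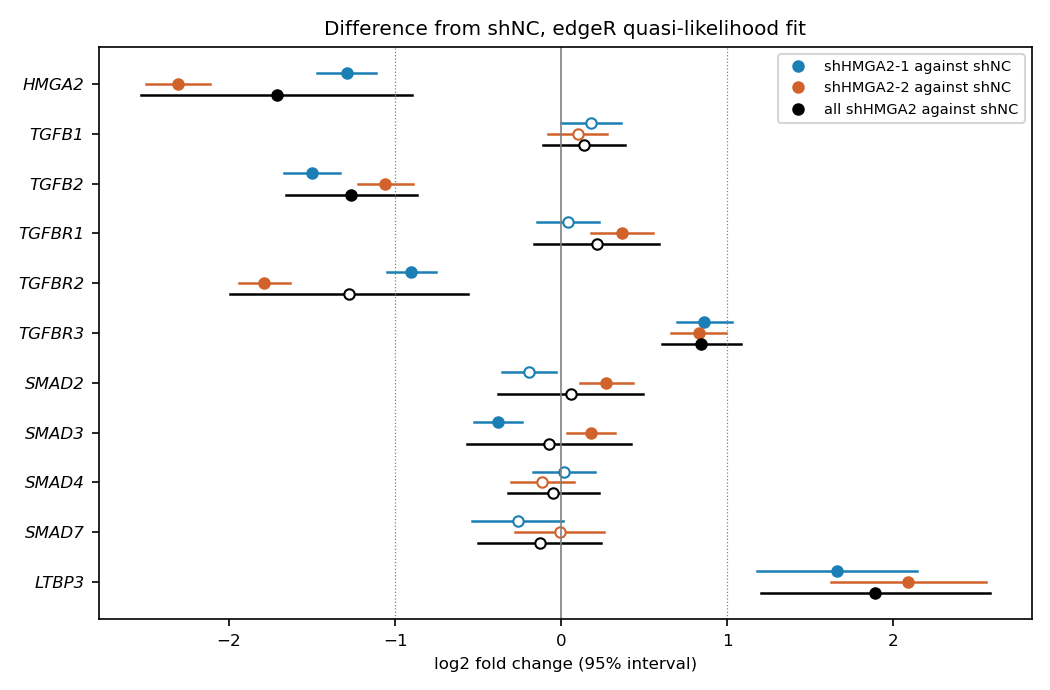
Log2 fold change against shNC (x axis) of HMGA2 and the 10 genes with 95% intervals, for shHMGA2-1 (blue), shHMGA2-2 (orange) and all shHMGA2 libraries as a single group (black). Filled points passed the adjusted p threshold of 0.05 (edgeR), and dotted lines mark 2-fold. TGFB2 at -1.50 and -1.06 and TGFBR2 at -0.90 and -1.79 lie left of 0, TGFBR3 and LTBP3 lie right of it, and SMAD3 lies on both sides.

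Of the SMADs that carry the signal, SMAD3 and SMAD2 were lower in shHMGA2-1 than in shHMGA2-2. SMAD3 (ENSG00000166949, chromosome 15, 67063763 to 67195173, plus strand), which binds DNA directly, had counts of 2230 and 2117 (shNC), 1778 and 1748 (shHMGA2-1) and 2525 and 2689 (shHMGA2-2). The lines did not overlap. This gave a log2 fold change of -0.38 (SE 0.07, edgeR adjusted p = 0.000169) in shHMGA2-1 and 0.18 (SE 0.07, edgeR adjusted p = 0.0289) in shHMGA2-2. The rise in shHMGA2-2 lost the threshold when any shNC or shHMGA2-2 library was left out, with an edgeR adjusted p of 0.0709 to 0.250 (lowest over alternatives 0.000665), whereas the fall in shHMGA2-1 did not in any of the alternatives. The direct difference between the lines was 0.56 (SE 0.07, edgeR adjusted p = 3.78e-07).

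SMAD2 (ENSG00000175387, chromosome 18, 47808957 to 47931146, minus strand), the other SMAD that TGFBR1 activates, had 1542 and 1539 counts (shNC), 1350 and 1492 (shHMGA2-1) and 1960 and 1971 (shHMGA2-2). The lines did not overlap in counts. The log2 fold change of SMAD2 was -0.19 (SE 0.08, edgeR adjusted p = 0.0597) in shHMGA2-1, which did not pass the threshold, and 0.27 (SE 0.08, edgeR adjusted p = 0.00418) in shHMGA2-2. The value in shHMGA2-1 passed it without shHMGA2-1 replicate 2 (-0.28, edgeR adjusted p = 0.00243; range over alternatives 0.00243 to 0.451). That in shHMGA2-2 missed it without either shNC library or without shHMGA2-2 replicate 1 (edgeR adjusted p of 0.0502 to 0.0576; lowest over alternatives 0.000119). Between the knockdown lines the difference was 0.47 (SE 0.08, edgeR adjusted p = 2.08e-05).

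SMAD4 (ENSG00000141646, chromosome 18, 51028394 to 51085045, plus strand), the shared partner of SMAD2 and SMAD3, had counts of 1049 and 1176 (shNC), 1105 and 1270 (shHMGA2-1) and 1068 and 1108 (shHMGA2-2). In CPM the libraries of shHMGA2-1 (63.7 and 74.8) lay on both sides of shNC (64.5 and 72.4), and those of shHMGA2-2 (63.1 and 63.5) were just below both other lines. The log2 fold change was 0.02 (95% interval -0.17 to 0.20) in shHMGA2-1 and -0.11 (95% interval -0.30 to 0.07) in shHMGA2-2, with edgeR adjusted p of 0.920 and 0.297. The inhibitor SMAD7 (ENSG00000101665, chromosome 18, 48919853 to 48950965, minus strand), itself induced by TGF-beta in many cells, had 229 and 226 counts (shNC), 198 and 203 (shHMGA2-1) and 226 and 252 (shHMGA2-2). Both shHMGA2-1 libraries were below shNC and those of shHMGA2-2 overlapped shNC. The log2 fold changes of SMAD7 were -0.26 (95% interval -0.54 to 0.01, edgeR adjusted p = 0.141) and -0.01 (95% interval -0.28 to 0.26, edgeR adjusted p = 0.955).

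Compared directly, shHMGA2-2 and shHMGA2-1 differed in 5 of the 10 genes (4 higher in shHMGA2-2 and 1 lower), beside 50.2% of all tested genes (24.5% higher and 25.7% lower). The 5 were TGFB2, TGFBR1, SMAD2 and SMAD3, all higher in shHMGA2-2, and TGFBR2, which was lower. With edgeR, 6 genes had an unadjusted p under 0.05, and 0 passed both thresholds with edgeR, DESeq2 or limma, beside 15.1% of all tested genes with edgeR. The members' median difference was 0.29, against 0.00 over all tested genes.

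With the 4 shHMGA2 libraries taken as a single group, 3 of the 10 genes were called, namely TGFB2 (lower), TGFBR3 and LTBP3 (both higher). Of all tested genes 5.26% were called (2.34% higher and 2.92% lower), and both thresholds were passed by TGFB2 and LTBP3 and by 3.09% of all tested genes. The log2 fold changes were -1.26 (SE 0.16, edgeR adjusted p = 0.0130) for TGFB2, 0.84 (SE 0.10, edgeR adjusted p = 0.0102) for TGFBR3 and 1.89 (SE 0.29, edgeR adjusted p = 0.0212) for LTBP3. TGFBR2, which differed between the knockdown lines, had -1.28 (SE 0.30, edgeR adjusted p = 0.0628) in this comparison and passed the threshold with DESeq2 (adjusted p = 0.00117, in a range over alternatives of 2.89e-15 to 0.365). The common biological coefficient of variation was 0.291 here and 0.0583 with the lines as separate groups, since differences between the knockdown lines count as spread in the former. Without shNC replicate 1 or without shNC replicate 2, a single control remained and 0 of the 10 genes were called by edgeR, with adjusted p of 0.160 to 0.186 for TGFB2 and TGFBR3 and of 0.219 to 0.225 for LTBP3. LTBP3 also lost the threshold without shHMGA2-1 replicate 1 or either shHMGA2-2 library (edgeR adjusted p of 0.0508 to 0.0538, the lowest over alternatives being 5.41e-08).

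Levels of different genes were set side by side per length, as the deposited FPKM. In shNC, TGFBR2 was the highest of the 10 genes at 30.5 ± 1.39 FPKM (SD, n = 2). It was followed by TGFB1 (19.6 ± 1.87, SD, n = 2), TGFB2 (17.3 ± 0.177, SD, n = 2) and SMAD3 (12.8 ± 0.474, SD, n = 2). TGFBR1 and TGFBR3, at 8.30 and 8.23 FPKM, overlapped between libraries, as did SMAD7 and SMAD4 at 3.40 and 3.33. SMAD2 was at 2.49 and LTBP3 was the lowest at 0.17 FPKM. In both knockdown lines TGFB1 was the highest, at 23.2 ± 1.74 FPKM for shHMGA2-1 and 22.8 ± 1.08 for shHMGA2-2 (each SD, n = 2). TGFBR2 ranked 2 at 17.1 FPKM in shHMGA2-1 and ranked 5 at 9.59 FPKM in shHMGA2-2, below TGFBR3 and SMAD3 (15.8 FPKM each, overlapping) and TGFBR1 (11.6 FPKM).

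The ratio of receptors within a library changed with these levels. The FPKM ratio of TGFBR2 to TGFBR1 was 3.44 and 3.92 (shNC), 2.06 and 1.79 (shHMGA2-1) and 0.808 and 0.844 (shHMGA2-2), without overlap between lines. The ratio of TGFBR3 to TGFBR2 was 0.272 and 0.268 (shNC), 0.878 and 0.951 (shHMGA2-1) and 1.68 and 1.62 (shHMGA2-2). The ratio of the ligands TGFB1 to TGFB2 was 1.05 and 1.22 (shNC), 3.80 and 3.47 (shHMGA2-1) and 2.51 and 2.55 (shHMGA2-2). The ratio of SMAD3 to SMAD2 stayed within 4.28 to 5.29 in the 6 libraries. It was higher in both shNC libraries (5.29 and 5.02) than in those of shHMGA2-1 (4.81 and 4.28) and shHMGA2-2 (4.70 and 4.98), and the knockdown lines overlapped. These sizes depend on the gene length. The exonic size used for FPKM was 36426 bases for SMAD2 and 9981 for SMAD3. By the longest coding transcript, SMAD2 was still long, at 34526 bases against 6247 for SMAD3. With the longest coding transcript of GENCODE 29, a choice made after the data were seen, the mean ratio of TGFBR2 to TGFBR1 was 4.45 in shNC, 2.32 in shHMGA2-1 and 0.998 in shHMGA2-2, so their order in shHMGA2-2 is not settled, and that of SMAD3 to SMAD2 was 6.88 to 7.80. TGFBR2 in shNC and TGFB1 in both knockdown lines were the highest on that scale too. Other orders did change with it. In shNC, SMAD4 (7.47) was above SMAD7 (3.03) and TGFBR3 (10.9) above TGFBR1 (10.2), without overlap, while TGFB2 (20.7) and SMAD3 (20.5) overlapped. In shHMGA2-2, SMAD3 (25.25) was above TGFBR3 (21.02) without overlap.

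**Figure D3:**
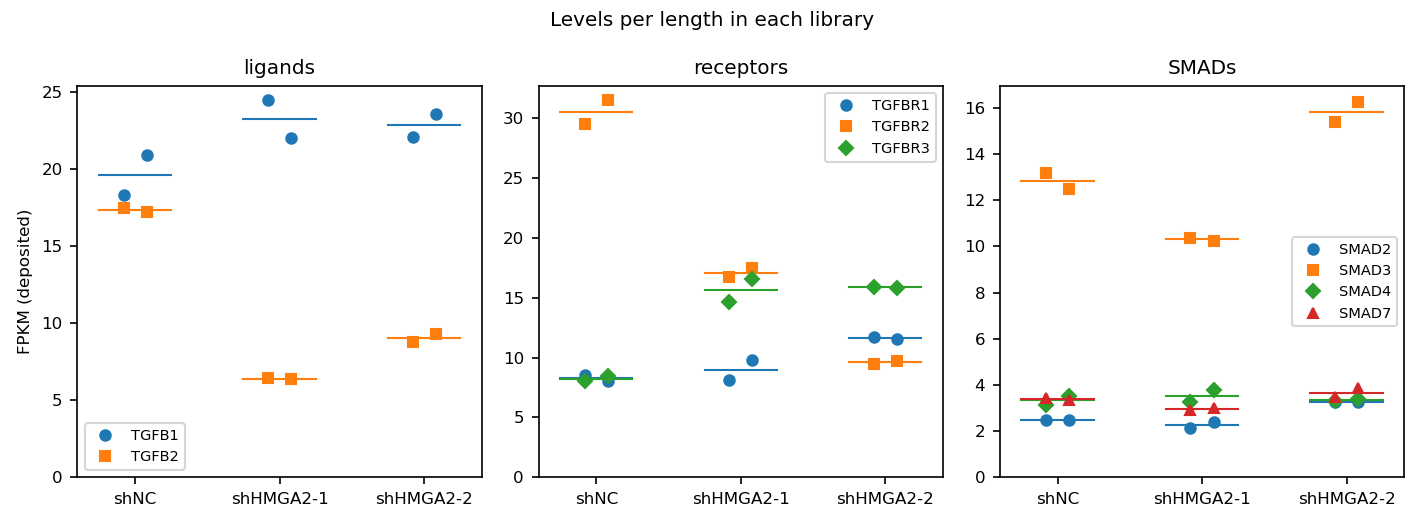
Deposited FPKM (y axis, linear from 0) of ligands, receptors and SMADs in each of the 6 libraries; points are libraries and bars are the mean of a line. TGFBR2 goes from above the other receptors in shNC (30.5) to below them in shHMGA2-2 (9.59; level with TGFBR1 by transcript length), and TGFB2 separates from TGFB1 in both knockdown lines.

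The genes whose pattern was most like that of a member were found by the root mean square difference of log2 CPM, each centred on its shNC mean, over the 6 libraries, for the 3 members with the largest spread. SSR3, HMGA1 and CUL2 were nearest to TGFBR2, with differences of 0.0600, 0.0717 and 0.0873 log2 units. SSR3, a subunit of the translocon-associated complex, had counts of 10024 and 9924 (shNC), 5498 and 5991 (shHMGA2-1) and 3112 and 2911 (shHMGA2-2). HMGA1, the paralog of HMGA2, had 20319 and 21184, then 12283 and 10955, then 6228 and 6192 in the same order. EFNB2, ARHGAP22 and HIPK2 were nearest to TGFB2 (0.0586 to 0.112). The ephrin ligand EFNB2 had 454 and 437 counts (shNC), 175 and 173 (shHMGA2-1) and 232 and 226 (shHMGA2-2). ACOT11, C1R and IRF5 were nearest to LTBP3 (0.0792 to 0.124), all with low counts in shNC (ACOT11 had 6 in each library).

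The rest of the pathway was read from 5 lists of 99 further genes, of which 74 passed the filter on low counts. Of these, 45 were called in shHMGA2-1 (26 higher and 19 lower) and 59 in shHMGA2-2 (29 higher and 30 lower), where 33.4% and 58.7% of all tested genes were called. The median log2 fold change of the 74 genes was 0.00 in shHMGA2-1 and 0.07 in shHMGA2-2, beside 0.01 and 0.03 over all tested genes, so the lists had no common direction by their median. In the comparison of all shHMGA2 libraries, 9 of the 74 were called (5 higher and 4 lower), beside 5.26% of all tested genes. Each of these 9 calls was lost without shNC replicate 1 and without shNC replicate 2 (edgeR adjusted p of 0.0780 to 0.307).

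Of 9 other ligands of the TGF-beta and activin branch, 3 were tested. INHBB, a subunit of activin B, went in opposite directions, with 352 and 386 counts (shNC), 1657 and 1586 (shHMGA2-1) and 11 and 9 (shHMGA2-2). The log2 fold change of INHBB was 2.06 (SE 0.10, edgeR adjusted p = 2.96e-14) in shHMGA2-1 and -5.27 (SE 0.20, edgeR adjusted p = 4.88e-17) in shHMGA2-2. TGFB3, the third TGF-beta ligand, had few counts, with 16 and 35 (shNC), 21 and 40 (shHMGA2-1) and 94 and 64 (shHMGA2-2). It rose in shHMGA2-2 (1.55, SE 0.34, edgeR adjusted p = 0.000416) and had 0.18 (SE 0.39, edgeR adjusted p = 0.772) in shHMGA2-1. INHBA, the subunit of activin A, had at most 5 counts in any library and was not tested.

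In the list of latency and activation, 6 of 11 tested genes were called in shHMGA2-1 (2 higher and 4 lower) and 9 in shHMGA2-2 (3 higher and 6 lower), beside 33.4% and 58.7% of all tested genes, with median log2 fold changes of -0.22 and -0.34. THBS1, the matrix protein thrombospondin-1 that can release active TGF-beta, had counts of 3072 and 3086 (shNC), 1486 and 1353 (shHMGA2-1) and 12097 and 12310 (shHMGA2-2). It was thus lower than shNC in shHMGA2-1 (-1.20, SE 0.07, edgeR adjusted p = 7.62e-13) and higher in shHMGA2-2 (1.91, SE 0.06, edgeR adjusted p = 7.27e-18). LTBP2, a matrix relative of LTBP3 that does not bind latent TGF-beta, went the other way, from 295 and 289 counts in shNC to 625 and 616 in shHMGA2-1 and to 178 and 181 in shHMGA2-2. The integrin subunits ITGB5 and ITGB3, which take part in releasing latent TGF-beta, fell in shHMGA2-2, with log2 fold changes of -1.14 (SE 0.08, edgeR adjusted p = 6.84e-12) and -3.32 (SE 0.58, edgeR adjusted p = 2.34e-05). In shHMGA2-1 they had -0.16 (edgeR adjusted p = 0.101) and -0.83 (edgeR adjusted p = 0.139). ITGB3 had only 26 and 33 counts in shNC.

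Of 8 tested other receptors and co-receptors, 6 were called in shHMGA2-1 (2 higher and 4 lower) and 6 in shHMGA2-2 (1 higher and 5 lower), beside 33.4% and 58.7% of all tested genes, with median log2 fold changes of -0.27 and -0.50. NRP1, a co-receptor for VEGF and semaphorins that also binds TGF-beta, had 17470 and 18094 counts (shNC), 4310 and 4517 (shHMGA2-1) and 483 and 430 (shHMGA2-2). The log2 fold change of NRP1 was -2.09 (SE 0.07, edgeR adjusted p = 5.08e-17) in shHMGA2-1 and -5.36 (SE 0.08, edgeR adjusted p = 2.58e-24) in shHMGA2-2, so the 3 lines were in the same order as for TGFBR2. ENG, the co-receptor endoglin, which is structurally related to TGFBR3, moved opposite to it, from 124 and 135 counts in shNC to 18 and 9 in shHMGA2-1 and to 20 and 14 in shHMGA2-2. ENG had log2 fold changes of -3.33 (SE 0.30, edgeR adjusted p = 3.26e-09) and -3.00 (SE 0.29, edgeR adjusted p = 2.53e-09). In all shHMGA2 libraries, where 5.26% of all tested genes were called, 3 of these 8 genes were called. They were ENG (-3.15), the activin receptor ACVR2B (0.91) and FKBP1A (-0.56), which binds type I receptors and keeps them inactive, the last 2 being named after their values were seen. Without either shNC library all 3 missed the threshold (edgeR adjusted p of 0.106 to 0.200), as ACVR2B and FKBP1A did with the replicate numbers as a block (edgeR adjusted p of 0.0530 and 0.0679).

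SMAD regulators and corepressors were called for 12 of 24 tested genes in shHMGA2-1 (6 higher and 6 lower) and for 19 in shHMGA2-2 (10 higher and 9 lower), beside 33.4% and 58.7% of all tested genes, with medians of -0.04 and 0.07. The inhibitors PMEPA1 and LDLRAD4, which keep SMAD2 and SMAD3 from the receptor, were near absent in shNC with 2 counts in each library. PMEPA1 had 28 and 44 counts in shHMGA2-1 and 397 and 477 in shHMGA2-2, a ratio of normalized counts of 17.0 (95% counting interval 6.38 to 64.2) and 207 (80.4 to 760) to shNC, with edgeR adjusted p of 1.06e-06 and 3.38e-16. LDLRAD4 had 7 and 12 counts in shHMGA2-1 and 54 and 83 in shHMGA2-2, ratios of 4.50 (1.50 to 18.2) and 32.4 (12.4 to 121), with edgeR adjusted p of 0.0314 and 1.81e-08. The call for LDLRAD4 in shHMGA2-1 was lost with DESeq2 (adjusted p = 0.0651) and without shNC replicate 1 or 2 or shHMGA2-1 replicate 2 (edgeR adjusted p of 0.128 to 0.175), in a range over alternatives of 0.0201 to 0.756. SMAD6, the other inhibitory SMAD, rose by 1.01 (SE 0.25, edgeR adjusted p = 0.00256) and 1.21 (SE 0.24, edgeR adjusted p = 0.000142) on the log2 scale, from 36 and 68 counts in shNC to 124 and 97 in shHMGA2-1 and 107 and 148 in shHMGA2-2. Without shNC replicate 1, SMAD6 in shHMGA2-1 had 0.62 (edgeR adjusted p = 0.106, the highest over alternatives, where the lowest was 7.43e-05). CREBBP, the acetyltransferase coactivator of SMADs, fell by 1.04 (SE 0.08, edgeR adjusted p = 2.69e-10) and 1.14 (SE 0.08, edgeR adjusted p = 1.19e-11), and in all shHMGA2 libraries it was called by edgeR (-1.09, edgeR adjusted p = 0.00392), but not without shNC replicate 1 or 2 (edgeR adjusted p of 0.0856 and 0.103). There edgeR called 1 gene of this list and DESeq2 called 5, among them PMEPA1, LDLRAD4 and SMAD6 (DESeq2 adjusted p of 2.31e-06, 0.00906 and 0.0226, against edgeR adjusted p of 0.0904, 0.130 and 0.106). Of all tested genes edgeR called 5.26% there, and the share called by DESeq2 is not given here.

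Among 28 tested target genes, 20 were called in shHMGA2-1 (15 higher and 5 lower) and 23 in shHMGA2-2 (14 higher and 9 lower). Of all tested genes 33.4% were called in shHMGA2-1 (15.8% higher and 17.6% lower) and 58.7% in shHMGA2-2 (29.5% higher and 29.2% lower). Their median log2 fold change was 0.42 in shHMGA2-1 and 0.29 in shHMGA2-2, above the all-gene medians. FN1, fibronectin, a matrix protein that TGF-beta induces in many cells, had counts of 4187 and 4377 (shNC), 321 and 293 (shHMGA2-1) and 177 and 162 (shHMGA2-2), or log2 fold changes of -3.88 (SE 0.09, edgeR adjusted p = 6.01e-20) and -4.74 (SE 0.10, edgeR adjusted p = 4.93e-22). ANGPTL4, a secreted protein induced by TGF-beta in breast cancer cells, moved the other way, from 20 and 17 counts in shNC to 231 and 172 in shHMGA2-1 and 189 and 194 in shHMGA2-2, with log2 fold changes of 3.36 (SE 0.23, edgeR adjusted p = 3.35e-11) and 3.28 (SE 0.23, edgeR adjusted p = 1.09e-11). The cytokine IL11, another target in breast cancer cells, fell from 547 and 496 counts to 86 and 77 in shHMGA2-1 and to 0 and 6 in shHMGA2-2. Both thresholds were passed by 8 target genes in shHMGA2-1 and 15 in shHMGA2-2, beside 8.49% and 21.3% of all tested genes. Of 20 target genes past both thresholds in either line, the 6 with the largest changes are described here. The share of all tested genes past them in either line is not given here.

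Other targets changed in shHMGA2-2 and were not called in shHMGA2-1. ID2, a helix-loop-helix inhibitor that TGF-beta represses in epithelial cells, had 4 and 11 counts (shNC), 3 and 5 (shHMGA2-1) and 209 and 274 (shHMGA2-2). TGFBI, a matrix protein named for its induction by TGF-beta, had 29 and 36, then 45 and 51, then 224 and 224 in the same order. TIMP3, an inhibitor of metalloproteinases, had 0 counts in both shNC libraries, 2 and 0 (shHMGA2-1) and 41 and 58 (shHMGA2-2), where it was at least 15.6-fold higher than shNC, taking 3 counts per shNC library as the floor. The differences between the knockdown lines were 5.87 (SE 0.34, edgeR adjusted p = 3.16e-13) for ID2 and 2.22 (SE 0.19, edgeR adjusted p = 5.09e-10) for TGFBI.

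The abundant target CCN2, a matricellular growth factor named here after its values were seen, had log2 fold changes of 0.35 (SE 0.06, edgeR adjusted p = 2.68e-05) in shHMGA2-1 and -0.11 (SE 0.06, edgeR adjusted p = 0.0905) in shHMGA2-2. In all shHMGA2 libraries, 5 target genes were called. These were FN1 (-4.25), ANGPTL4 (3.32) and, named after their values were seen, COL5A1 (1.26), TPM1 (1.02) and COL4A2 (0.57). All 5 missed the threshold without shNC replicate 1 or replicate 2 (edgeR adjusted p of 0.0780 to 0.307). COL5A1 and COL4A2 also missed it with the replicate numbers as a block (edgeR adjusted p of 0.105 and 0.111) and without shHMGA2-1 replicate 1 or either shHMGA2-2 library (edgeR adjusted p of 0.0556 to 0.0841). DESeq2 called 11 target genes in this comparison. Of all tested genes edgeR called 5.26%, and the share called by DESeq2 is not given here.

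**Figure D4:**
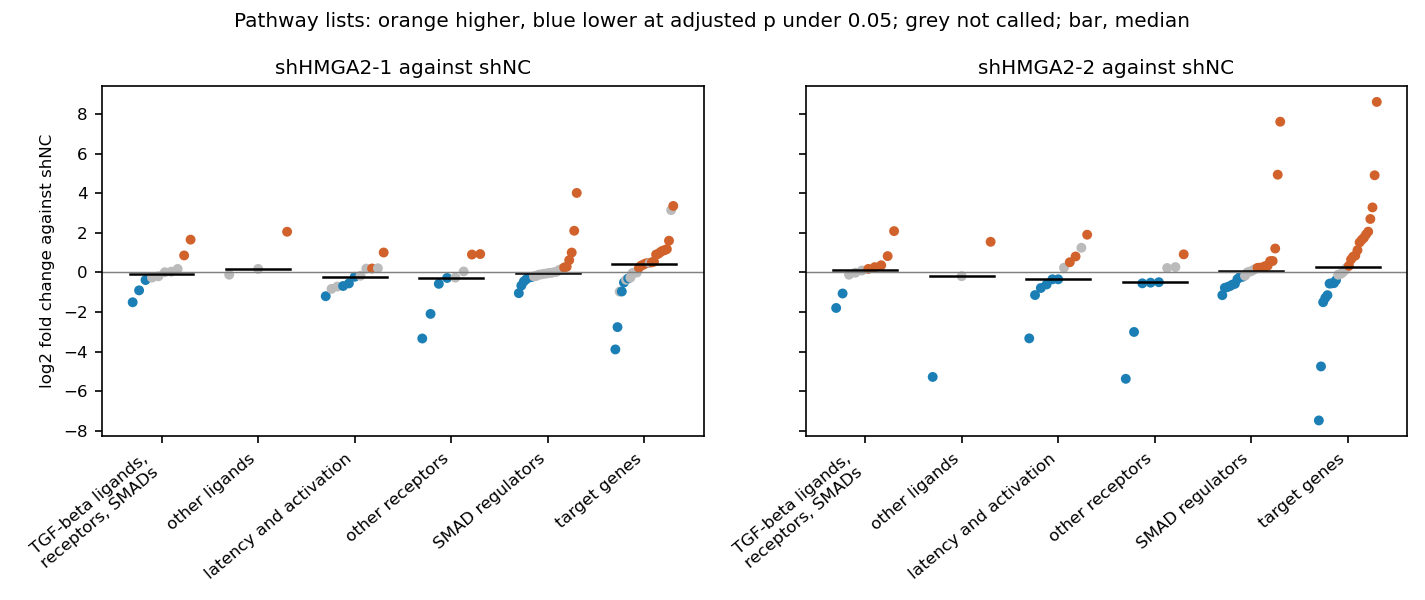
Log2 fold change against shNC (y axis) of each tested gene in the 10 ligands, receptors and SMADs and in the 5 further lists, for shHMGA2-1 (left) and shHMGA2-2 (right). Each point is a gene, orange where called higher, blue where called lower and grey where not called at an adjusted p under 0.05; bars are list medians. The target genes have medians of 0.42 and 0.29 and spread from -7.46 to 8.60 in shHMGA2-2, where the highest point is TIMP3, with 0 counts in shNC, so its fitted value depends on the prior count.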

How the data were processed

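RNA from 6 MDA-MB-231 samples was sequenced by the authors after mRNA capture. The submitters' processing notes name HISAT2 2.2.1, HTSeq 0.6.1 and the build GRCh38.p13, and the gene annotation and strand setting are not given in the sources used here. The deposited table holds raw counts per gene and, beside them, FPKM, which the authors scaled by exonic size and library total; 100% of the FPKM values were recomputed from the counts within 0.0051. Its 61806 genes carry IDs and, except for 20417, symbols, and no per-sample column was left unused.

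Counts were fitted with edgeR 4.0.16 in R 4.3.3 (filterByExpr, TMM, quasi-likelihood test, Benjamini-Hochberg adjustment over 16110 genes), with the 3 lines as groups or with shHMGA2 as a single group. Calls were made at an adjusted p under 0.05, and separately with the study's thresholds of 2-fold and an adjusted p under 0.05. Library totals of 16461178 to 17167293 set a floor of 3 counts, and counting intervals (95%, exact binomial) cover counting error only. DESeq2 1.42.0, limma 3.58.1 on log2(FPKM + 1) or log2(FPKM + 0.1), other scalings, no filter, a replicate block, the mean of the shRNA contrasts and leaving out each library were alternatives. The script was tested on simulated data.

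The members and the lists were chosen with earlier results of these data known. Named besides the members were HMGA2, the genes of each list past both thresholds in either line (at most 6, by size of change), and the 3 nearest genes to the 3 members with the largest spread. Protein sequences were not used here, and values of some single genes are not reported here.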

Additional observations from a re-analysis of the deposited data

Results flagged for a closer look

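In the direct edgeR contrast of shHMGA2-2 against shHMGA2-1, 50.2% of all tested genes had an adjusted p under 0.05. The ligands, receptors and SMADs followed here were chosen with earlier results of these data known. Other genes were named by their values in these same libraries. The differences of both are therefore no separate evidence about the pathway. Of the genes described, those below passed the threshold in this contrast, given as log2 values. Among the ligands, receptors and SMADs these were TGFB2 (0.44), TGFBR1 (0.32), TGFBR2 (-0.89), SMAD2 (0.47) and SMAD3 (0.56). Among the other ligands and the genes of latency and activation they were INHBB (-7.32), TGFB3 (1.37), ITGB3 (-2.50), THBS1 (3.10), ITGB5 (-0.97) and LTBP2 (-1.79). Among co-receptors and SMAD regulators they were NRP1 (-3.27), PMEPA1 (3.59) and LDLRAD4 (2.83). Among target genes they were TIMP3 (5.46, a count ratio of 49.4 with a 95% counting interval of 13.3 to 414), IL11 (-4.71), ID2 (5.87), FN1 (-0.86), TGFBI (2.22), CCN2 (-0.46), COL4A2 (0.18), COL5A1 (0.58) and TPM1 (0.22). The TGFB3 difference was 1.04 (edgeR adjusted p = 0.0722; range over alternatives 4.62e-06 to 0.0722) without shHMGA2-2 replicate 1.

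SMAD4 was flagged for a single library. The rule used flags about 1 in 20 groups by chance if all values of a group share a source, whereas these libraries were of different lines. In CPM, SMAD4 had 64.5 and 72.4 in shNC, a spread near that of shHMGA2-1 (63.7 and 74.8). Of the 4 shHMGA2 libraries, shHMGA2-1 replicate 2 lay apart from the other 3 in CPM, with a gap of 0.950 of the whole range. Without shHMGA2-1 replicate 1, which leaves that library alone in its line, SMAD4 was lower in shHMGA2-2 than in shHMGA2-1 (-0.24, edgeR adjusted p = 0.0147; range over alternatives 0.0147 to 0.943), against -0.13 (edgeR adjusted p = 0.247) with all libraries.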

How the results depend on the processing

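For the 10 genes, 533 recomputed fold changes stayed on their side of the threshold, 15 newly passed it and 22 missed it. With limma on log2(FPKM + 1), 1 gene instead of 2 passed both thresholds in shHMGA2-1, 1 instead of 3 in shHMGA2-2 and 1 instead of 2 in all shHMGA2 libraries; LTBP3 there had 0.42, 0.62 and 0.52, and TGFB2 in shHMGA2-2 -0.87. For all shHMGA2 libraries, the mean of the shRNA contrasts called 5 members and 53 pathway genes instead of 3 and 9, and INHBB turned from 1.07 to -1.61 (edgeR adjusted p = 9.96e-10), while DESeq2 called 20 pathway genes. The share of all tested genes called under each alternative is not given here, so these counts cannot be set against the transcriptome. The replicate numbers did not pair the libraries (correlations of deviations from -0.10 to 0.00); with them as a replicate block, 1 member was called in all shHMGA2 libraries, 0 passed both thresholds and 5 pathway genes were called. SMAD3 in shHMGA2-2 then had an adjusted p of 0.0646. Leaving out each library gave 5 to 7 called members in shHMGA2-1, 5 to 7 in shHMGA2-2, 4 to 7 between the lines and 0 to 3 in all shHMGA2 libraries. Both thresholds were passed by 2, 3, 0 and 0 to 2 members, and 34 to 50, 50 to 62, 45 to 57 and 0 to 11 pathway genes were called. The lowest of these for all shHMGA2 libraries came without either shNC library. The lone library is then taken to vary like the others. Scaling by library totals moved the median of all genes in shHMGA2-2 from 0.03 to 0.15. LTBP3, with 33 and 34 counts in shNC, is the member whose size depth limits most.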
